A study of Rattus norvegicus with 6 samples.

Results

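G2/M and mitosis genes carry a cell with copied DNA through chromosome condensation, spindle assembly, separation of the sister chromatids and cytokinesis. The set described here was picked by gene name with earlier results of these data in view, and 41 of its 42 names are among the 26126 entries of the deposited count table. Ccnb2 is not analysed here. All 41 passed the low-count filter, which kept 14488 entries in all. Their counts lay between 723 and 66274 per library.

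Entry into mitosis is driven by the kinase CDK1 with its cyclins, which CDC25 phosphatases switch on and Polo and Aurora kinases reinforce. The spindle checkpoint then holds CDC20, the activator of the anaphase-promoting complex, until every chromosome is attached. Most of these genes are transcribed late in the cell cycle. Their promoters often hold CCAAT boxes and a CHR (cell cycle genes homology region), the element bound by the DREAM and B-MYB-MuvB complexes, with FOXM1 acting at the same sites. In muscle-type cells the program is switched off when myoblasts leave the cycle and differentiate.

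The libraries came from H9c2 cells, an established myoblast line from embryonic rat heart, grown in high-glucose DMEM with 10% fetal bovine serum. In all 6 libraries the cells had received an adenovirus and simulated ischemia-reperfusion, so no library without either is part of the comparison. For ischemia the cells sat in a buffer of pH 6.2 with 2-deoxyglucose and lactate, under 95% N2 and 5% CO2, with 30 min of flushing and then 1.5 to 3.5 h in the closed chamber. The groups are 3 libraries with a control adenovirus and 3 with an adenovirus labelled adPERK, for overexpression of PERK (Eif2ak3), the endoplasmic reticulum kinase that phosphorylates eIF2 alpha. No value for viral dose, time of infection or reperfusion time is given in the sources used here, nor is it stated whether the libraries of a group are separate cultures. The p-values therefore cover only the spread among these libraries, which could be technical.

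Total counts ran from 77923398 to 119087414 per library. Eif2ak3 was at 25.8 ± 1.60 CPM in the controls and 26.3 ± 0.318 CPM in the PERK-labelled libraries (SD, n = 3). CPM are counts scaled to an equal TMM-adjusted library total. This entry does not tell the groups apart, so the direction of every difference was taken from the labels. Other genes that respond to PERK were not used to check them. Control replicate 3 stood apart in weakly detected genes, with 45.4% of 1090 olfactory receptor entries above 0 against 6.24% to 14.5% in the other libraries. Of 11 myoblast and striated muscle markers 9 were tested, and their summed level was 1613 to 1718 CPM in the controls and 1619 to 1671 CPM in the PERK-labelled libraries. Myf5 was at 0 counts in all libraries. Markers of other cells gave sums in control and PERK-labelled libraries of 27583 to 28973 and 29152 to 30241 CPM for fibroblasts (7 of 8 tested), 48.6 to 52.8 and 53.1 to 54.3 CPM for epithelium (3 of 7) and 8.25 to 12.1 and 9.98 to 11.0 CPM for leukocytes (3 of 9, with Lyz2 at 0 counts). For endothelium only Tek of 7 was tested, at 1.29 to 1.56 and 0.638 to 0.877 CPM. The fibroblast sum came mostly from Col3a1 and Col1a1, with control means of 16670 and 9076 CPM. Whether H9c2 cells themselves express these collagens was not tested. The part of any of these markers in the results below was not tested.

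The promoters of 35 of the 41 genes are in the RefSeq promoter table of the GRCr8 rat assembly. They are shown for the CHR and CCAAT motifs described above. The 250 bases before the gene start are printed 5′ to 3′ on the gene's strand, for the 4 members with the smallest p-values among those that hold both motifs. Capitals mark a CHR, searched as TTTGAA or TTCGAA, and a CCAAT box, searched as CCAAT, each on both strands. On the opposite strand a CCAAT box reads ATTGG and a TTTGAA reads TTCAAA. Top2a lies at chr10:84473094-84473343 (minus strand), Cdc25b at chr3:138859923-138860172 (plus), Espl1 at chr7:135302466-135302715 (plus) and Mki67 at chr1:199952594-199952843 (minus).
Top2a: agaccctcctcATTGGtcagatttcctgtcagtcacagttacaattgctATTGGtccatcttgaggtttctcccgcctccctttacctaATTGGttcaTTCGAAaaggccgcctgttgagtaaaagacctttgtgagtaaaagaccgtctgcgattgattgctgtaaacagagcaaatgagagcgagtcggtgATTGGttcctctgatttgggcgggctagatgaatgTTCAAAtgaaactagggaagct
Cdc25b: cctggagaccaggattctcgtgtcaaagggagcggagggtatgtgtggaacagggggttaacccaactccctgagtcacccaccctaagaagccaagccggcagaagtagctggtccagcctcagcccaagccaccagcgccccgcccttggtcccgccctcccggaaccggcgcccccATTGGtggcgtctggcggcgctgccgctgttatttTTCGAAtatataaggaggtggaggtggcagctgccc
Espl1: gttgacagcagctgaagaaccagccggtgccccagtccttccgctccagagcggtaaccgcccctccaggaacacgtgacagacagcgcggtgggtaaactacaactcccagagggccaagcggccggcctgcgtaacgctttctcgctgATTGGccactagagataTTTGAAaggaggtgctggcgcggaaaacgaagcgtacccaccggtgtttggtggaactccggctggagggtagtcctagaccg
Mki67: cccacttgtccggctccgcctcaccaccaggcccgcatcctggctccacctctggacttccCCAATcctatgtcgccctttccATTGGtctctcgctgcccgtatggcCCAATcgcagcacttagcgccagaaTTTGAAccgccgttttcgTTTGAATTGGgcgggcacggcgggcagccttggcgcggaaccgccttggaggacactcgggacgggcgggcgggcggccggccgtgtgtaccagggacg
Top2a and Mki67 each held 4 CCAAT boxes and 2 CHR matches, and Cdc25b and Espl1 held 1 of each. In the Mki67 promoter a CHR match shares its last base with an ATTGG. The Espl1 CHR match began 83 bases before the gene start and the Cdc25b match 36 bases before it.

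Both motifs together were found in 47.2% of the 36 member promoters (Kif2c has 2 entries) and in 6.31% of all 33469 promoters of the same length. A CHR match was in 52.8% against 17.4%, and a CCAAT box in 72.2% against 34.0%. Of the 17 members with both motifs 13 had a log2 fold change below 0 and 4 above, with a median of -0.11. Of the 18 other members with a promoter entry 14 were below 0 and 4 above, with a median of -0.07. The 4 members above 0 with both motifs were Cdc20, Kif23, Cenpa and Bub3. Whether these letters are bound in H9c2 cells was not measured, and their part in the differences was not tested.

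The comparison asks how expression after simulated ischemia-reperfusion differs with the PERK adenovirus. Most G2/M and mitosis genes were slightly lower in the PERK-labelled libraries, and none passed the test across all genes. The lowest ratios belonged to Cdc25b and Nusap1, and Top2a had the smallest p-value. Cdc20, Kif23 and Cenpa lay on the other side. With edgeR's quasi-likelihood test and Benjamini-Hochberg adjustment at 0.05, 0 of the 41 members were called, where 0.421% of all tested entries were (0.311% higher and 0.110% lower). The smallest adjusted p among the members was 0.0534.

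The log2 fold change was below 0 for 32 members and above 0 for 9, with a median of -0.08 (range -0.30 to 0.26). Over all tested entries the median was -0.0045 and 51.3% lay below 0. At an unadjusted p under 0.05, 14 members were lower (34.1%) and 2 higher (4.88%), where 5.29% and 5.94% of all tested entries were. The 3 PERK-labelled libraries lay below all 3 control libraries for 17 members (41.5%) and above them for 5 (12.2%), where the shares over all entries were 8.55% and 9.66%. With the other scalings and low-count filters these counts were 16 or 17 and 4 or 5. The shares over all entries, here and elsewhere, were not matched for expression level. Each member had at least 723 counts in every library, while entries with far lower counts also passed the filter. The members are transcribed together in cycling cells, so they are not independent observations. In RNA from a whole culture, fewer cells in G2 and mitosis and less of each RNA per cell cannot be told apart.

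**Figure D1:**
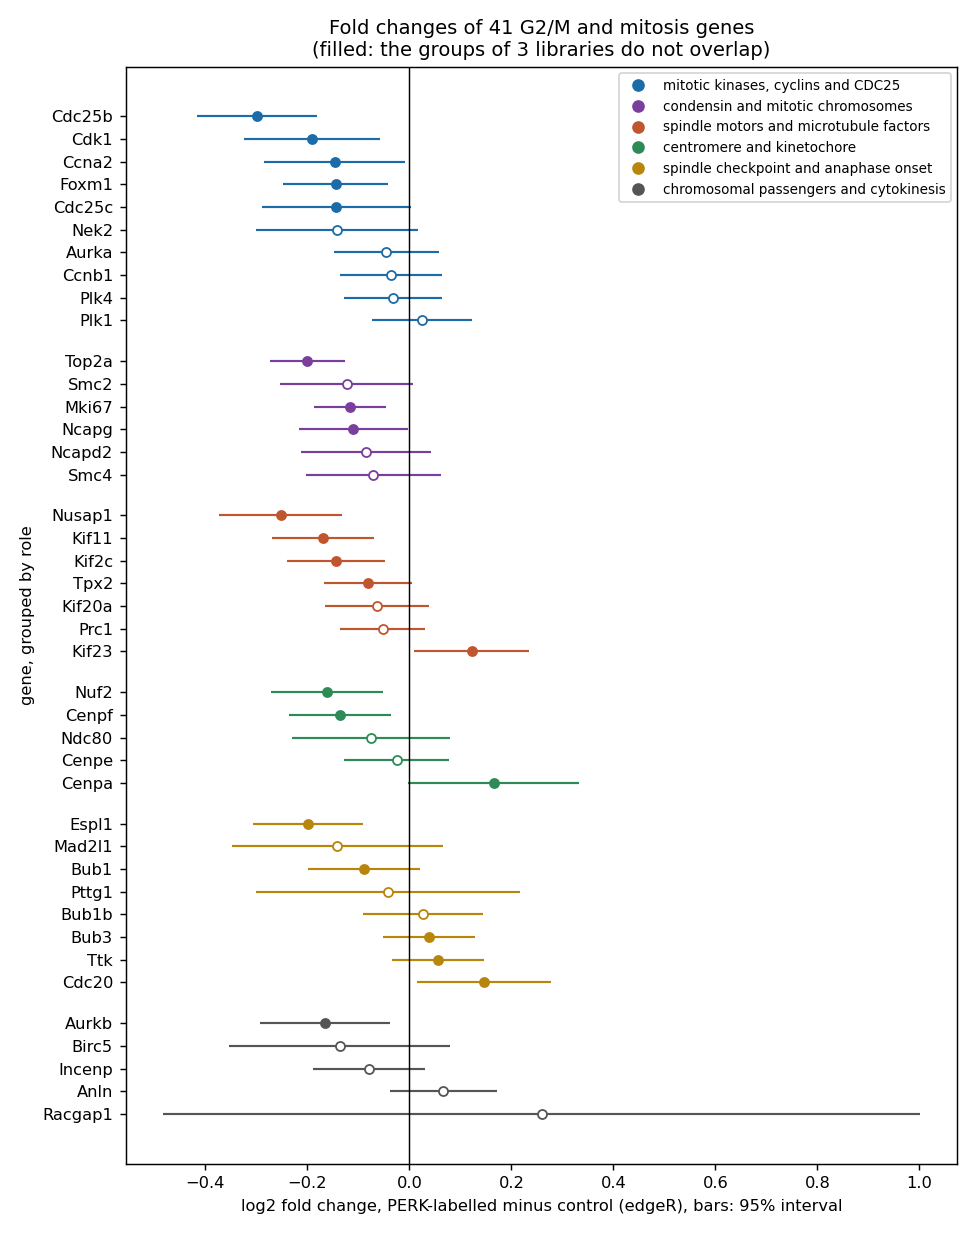
Log2 fold change (x axis) of each of the 41 genes (y axis, grouped and coloured by role), PERK-labelled minus control, with 95% intervals from edgeR. Filled points mark the 22 genes whose groups do not overlap, 17 of them left of 0; 25 of the 41 intervals include 0, and that of Racgap1 is the widest.

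Libraries of the same group were then compared with each other. The median over the members of log2 CPM minus the gene's own mean was 0.08, 0.04 and 0.03 for the controls, against -0.0024, -0.06 and -0.06 for PERK replicates 1, 2 and 3. PERK replicate 1 thus lay nearest to the controls, and the groups did not overlap. Control replicate 1 was the library with the highest level for 19 members, and PERK replicate 3 was the lowest for 15. Together the members took 0.413%, 0.399% and 0.403% of scaled counts in the controls, against 0.388%, 0.376% and 0.377% with the PERK label. The same median over all tested entries above 0 in every library stayed between -0.0023 and 0.0044, which TMM scaling largely fixes in advance.

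**Figure D2:**
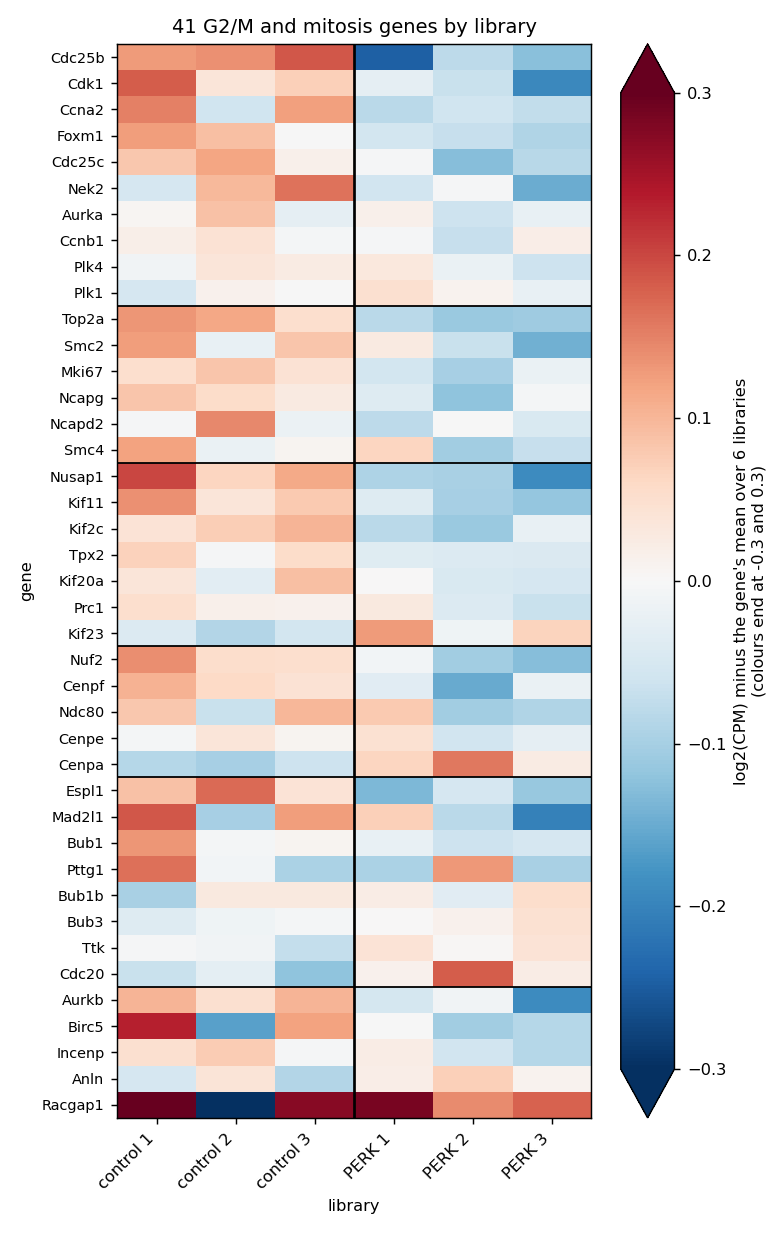
Log2 CPM of each gene (rows, grouped by role) minus its mean over the 6 libraries (columns), in colour. Control columns are mostly red and PERK columns mostly blue, PERK replicate 1 is paler (median -0.0024), and Racgap1 in control replicate 2 stands out.

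Among kinases, cyclins and CDC25 phosphatases, with the transcription factor Foxm1, 9 of 10 members lay below 0 with a median of -0.14, and 4 were lower at an unadjusted p under 0.05. Cdc25b, a phosphatase that starts CDK1 activation at the centrosome, was at 47.2, 47.5 and 49.2 CPM in the controls (replicates 1 to 3, the order used throughout) and at 36.4, 40.9 and 39.6 CPM in the PERK-labelled libraries. All 3 PERK-labelled values lay below the lowest control, giving a log2 fold change of -0.30 (SE 0.05, 95% interval -0.42 to -0.18, edgeR adjusted p = 0.0603). It passed with no low-count filter (adjusted p = 0.0365), a stricter one (0.0454), a robust fit (0.0227), counts divided by 6 (0.0484) and DESeq2 (0.00172). It did not pass with limma voom (0.0538), RLE size factors (0.0618), a replicate block (0.142) or any library left out. The authors' deposited adjusted p for Cdc25b was 0.36.

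Cdk1, the kinase of mitotic entry, was at 154, 139 and 143 CPM in the controls and 134, 130 and 119 CPM in the PERK-labelled libraries. The groups did not overlap, but the gap between the nearest libraries was smaller than the spread within either group (log2 fold change -0.19, SE 0.06, edgeR adjusted p = 0.255; DESeq2 adjusted p = 0.0346). Ccna2, the cyclin of S phase and G2, was at 89.7, 77.5 and 88.0 CPM against 76.4, 77.5 and 76.8 CPM, and control replicate 2 lay beside the PERK-labelled libraries. Foxm1, a transcription factor of late cell cycle genes, was at 40.5, 39.5 and 37.1 CPM against 35.7, 35.4 and 34.9 CPM, with a log2 fold change of -0.14 (SE 0.04, edgeR adjusted p = 0.268). Cdc25c, a further CDK1-activating phosphatase, had the same log2 fold change (-0.14) and groups that did not overlap.

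The remaining 5 members of this role group, Ccnb1, Plk1, Aurka, Plk4 and Nek2, had overlapping groups. Ccnb1, which encodes the cyclin partner of CDK1 in mitosis, was at 84.2, 85.7 and 82.9 CPM in the controls and 83.0, 79.2 and 84.3 CPM in the PERK-labelled libraries. The log2 fold change was -0.04 with a 95% interval of -0.14 to 0.06. Plk1, the Polo kinase of mitotic entry and spindle assembly, was at 52.5, 54.9 and 54.4 CPM against 56.2, 54.8 and 53.5 CPM, with an interval of -0.07 to 0.12. Aurka, the Aurora kinase of centrosomes and spindle poles, had a log2 fold change of -0.05 (interval -0.15 to 0.06), and Plk4, the kinase of centriole duplication, had a log2 fold change of -0.03 (interval -0.13 to 0.06). Nek2, a kinase of centrosome separation, had a log2 fold change of -0.14 (interval -0.30 to 0.02). The intervals of Ccnb1, Plk1, Aurka, Plk4 and Nek2 all include 0, which does not show that the levels were equal.

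**Figure D3:**
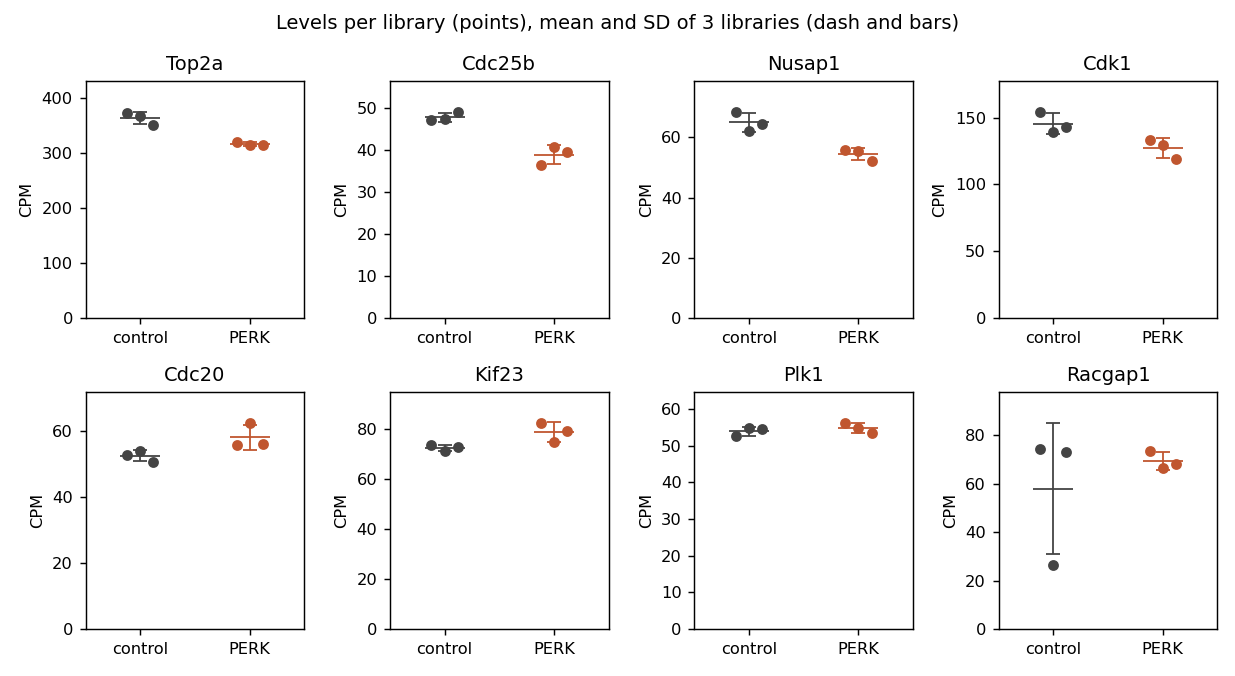
CPM (y axis, from 0) of 8 members in control and PERK-labelled libraries (x axis), each point 1 library, with the mean as a dash and the SD as bars. Top2a, Cdc25b, Nusap1 and Cdk1 are lower and Cdc20 and Kif23 higher in all PERK-labelled libraries, Plk1 overlaps, and Racgap1 has 1 control library at 26.6 CPM.

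All 6 genes of chromosome structure lay below 0, with a median of -0.11. Top2a, the topoisomerase that untangles sister DNA, was at 372, 367 and 351 CPM in the controls and 320, 314 and 315 CPM in the PERK-labelled libraries. The nearest libraries of the groups were 351 and 320 CPM, a gap wider than the spread of either group (log2 fold change -0.20, SE 0.03, 95% interval -0.27 to -0.13, edgeR adjusted p = 0.0534). Top2a passed with RLE size factors (adjusted p = 0.0477), a stricter filter (0.0397), a robust fit (0.0102), counts divided by 6 (0.0351), limma voom (0.0214) and DESeq2 (1.2e-07). It did not pass with no low-count filter (0.052), a replicate block (0.133) or any library left out. The authors' deposited adjusted p for Top2a was 0.72.

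Mki67, which encodes Ki-67, the protein that coats mitotic chromosomes and marks cycling cells, was at 599, 613 and 595 CPM against 556, 539.7 and 570.1 CPM. All PERK-labelled values were lower than all controls, with a log2 fold change of -0.12 (SE 0.03, edgeR adjusted p = 0.204; DESeq2 adjusted p = 0.00634). Condensin folds chromosomes into rods. Its ATPase subunits Smc2 and Smc4 had log2 fold changes of -0.12 and -0.07 with overlapping groups, and its subunits Ncapg and Ncapd2 had log2 fold changes of -0.11 and -0.08. Only Ncapg of these 4 had groups that did not overlap.

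Spindle motors and microtubule factors lay below 0 for 6 of 7 members, with a median of -0.08. Nusap1, which binds and stabilises spindle microtubules near chromosomes, was at 68.4, 62.2 and 64.4 CPM in the controls and 55.9, 55.6 and 52.3 CPM in the PERK-labelled libraries. The log2 fold change was -0.25 (SE 0.05, 95% interval -0.37 to -0.13, edgeR adjusted p = 0.121; DESeq2 adjusted p = 0.00366). Kif11, the motor that pushes spindle poles apart, was at 139, 129.8 and 134 CPM against 123, 118 and 117 CPM, with a log2 fold change of -0.17 (SE 0.04, edgeR adjusted p = 0.198; DESeq2 adjusted p = 0.0127). Neither gene had overlapping groups.

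Kif2c, a motor that takes microtubules apart at centromeres, had a log2 fold change of -0.14 (SE 0.04) and Tpx2, the spindle activator of Aurora A, a log2 fold change of -0.08 (SE 0.04), both with all PERK-labelled values below all controls. Kif20a and Prc1 act in the spindle midzone of anaphase. They had log2 fold changes of -0.06 and -0.05 with overlapping groups. Kif23, the centralspindlin motor of cytokinesis, differed from these in sign, with 73.6, 71.2 and 72.8 CPM in the controls and 82.7, 75.0 and 79.3 CPM in the PERK-labelled libraries. Its log2 fold change was 0.12 (SE 0.05, 95% interval 0.01 to 0.24, edgeR adjusted p = 0.397).

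Of the 5 centromere and kinetochore genes 4 lay below 0, with a median of -0.08. Nuf2 and Ndc80 encode partners in the complex that grips microtubules. Nuf2 was at 47.2, 44.5 and 44.4 CPM in the controls and 42.6, 39.9 and 39.2 CPM in the PERK-labelled libraries, a log2 fold change of -0.16 (SE 0.05, edgeR adjusted p = 0.242). Ndc80 had a log2 fold change of -0.08 (SE 0.07) with overlapping groups and ran from 82.7 to 92.8 CPM in the controls and from 80.6 to 91.5 CPM in the PERK-labelled libraries.

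Cenpf, a large kinetochore protein that appears in G2, was at 208, 202 and 199.6 CPM against 189, 174 and 191 CPM (log2 fold change -0.14, edgeR adjusted p = 0.278). Cenpe, a kinetochore motor, had a log2 fold change of -0.02. Cenpa, the histone H3 variant that marks centromeres, was higher in every PERK-labelled library, at 15.4, 16.5 and 15.0 CPM against 13.9, 13.8 and 14.1 CPM. Its log2 fold change was 0.17 (SE 0.07, 95% interval -0.0019 to 0.33, edgeR adjusted p = 0.451).

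The spindle checkpoint and anaphase genes split evenly, with 4 below and 4 above 0 and a median of -0.0080. Cdc20, which the checkpoint holds back and which then starts anaphase, was at 52.5, 54.0 and 50.6 CPM in the controls and 55.6, 62.4 and 55.9 CPM in the PERK-labelled libraries. PERK replicate 2 was the highest and the groups did not overlap. The log2 fold change was 0.15 (SE 0.06, 95% interval 0.01 to 0.28, edgeR adjusted p = 0.383), and it was 0.09 without PERK replicate 2. Ttk, the kinase that starts checkpoint signalling, and Bub3, a checkpoint adaptor, had log2 fold changes of 0.06 and 0.04, both with all PERK-labelled values above all controls by a small margin, and that of Ttk was 0.04 without control replicate 3.

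Espl1, the protease separase that cuts cohesin, was at 46.1, 48.8 and 44.7 CPM in the controls and 39.5, 41.9 and 40.1 CPM in the PERK-labelled libraries. The groups did not overlap (log2 fold change -0.20, SE 0.05, edgeR adjusted p = 0.169). Pttg1, which encodes securin, the inhibitor of separase, had a log2 fold change of -0.04 with a 95% interval of -0.30 to 0.22, and of 0.03 without control replicate 1. Bub1, a checkpoint kinase, had a log2 fold change of -0.09 with groups that did not overlap, and of -0.05 without control replicate 1. Bub1b, which encodes the CDC20 inhibitor BubR1, had a log2 fold change of 0.03 with overlap, which became -0.02 without control replicate 1. Mad2l1, the other CDC20 inhibitor, varied within both groups, from 32.1 to 39.1 CPM in the controls and from 29.9 to 36.1 CPM in the PERK-labelled libraries.

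Of 5 chromosomal passenger and cytokinesis genes 3 lay below 0, with a median of -0.08. Aurkb, the passenger kinase that corrects wrong attachments, was at 72.6, 69.9 and 72.6 CPM in the controls and 65.3, 67.1 and 59.4 CPM in the PERK-labelled libraries (log2 fold change -0.17, SE 0.06, edgeR adjusted p = 0.304). Its partners Birc5, which encodes survivin, and Incenp, the scaffold, had log2 fold changes of -0.14 and -0.08 with overlapping groups. That of Birc5 was -0.05 without control replicate 1 and -0.24 without control replicate 2. Anln, the anillin scaffold of the contractile ring, had a log2 fold change of 0.07 with overlapping groups.

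Racgap1, the partner of the Kif23 motor in centralspindlin, was at 74.5, 26.6 and 72.9 CPM in the controls and 73.5, 66.6 and 68.3 CPM in the PERK-labelled libraries. Control replicate 2 had 2199 counts, where the other 5 libraries had between 5680 and 8245. No other member varied so widely within a group. The coefficient of variation over the control libraries was 46.9% for Racgap1, while the median over the members was 3.52%. The log2 fold change of 0.26 (SE 0.32) rests on that library and was -0.09 without control replicate 2.

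Leaving out 1 library moved the log2 fold change of 20 members by more than 1.5 times. For 17 of them the groups overlapped, and the other 3 were Cdc20, Bub1 and Ttk.

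The authors' deposited table, which is built on the same counts, gives the members log2 fold changes from -0.29 to 0.26 and adjusted p from 0.36 upward. At an adjusted p of 0.05 it calls 0 of the 41 (2 at an unadjusted p), where it calls 2.27% of the 17483 entries with an adjusted p. DESeq2 run here on the 6 libraries called 6 members (14.6%), all lower, where it called 2.24% of the entries it tested. They were Top2a, Cdc25b, Nusap1, Mki67, Kif11 and Cdk1. The other alternative fits called 2 members with a robust fit (0.911% of all entries tested), 2 with a stricter low-count filter (0.688%) and 2 with counts divided by 6 (0.749%). They called 1 with limma voom (0.759%), 1 with RLE size factors (0.414%), 1 without a filter (0.431%) and 0 with a replicate block (0.0621%). All of the called members were lower. Without any 1 library 0 members were called, in fits that called 0.0804% to 0.255% of entries. The difference between the authors' values and those of DESeq2 run here was not traced.

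A wider list of 69 tested G2/M and mitosis genes outside the set was read beside it. With edgeR 0 and with DESeq2 4 were called, 57 lay below 0 and 12 above, and the median was -0.09. At an unadjusted p under 0.05, 18 were lower and 0 higher, where 5.29% and 5.94% of all tested entries were. Over all entries edgeR called 0.421% and DESeq2 2.24%, also for the lists below. Sgo2, a protector of centromeric cohesin, was at 89.1, 88.6 and 86.2 CPM in the controls and 73.6, 75.0 and 69.7 CPM in the PERK-labelled libraries (log2 fold change -0.27, SE 0.05, edgeR adjusted p = 0.057). Ckap2l, a spindle microtubule protein, had a log2 fold change of -0.21 (SE 0.04, edgeR adjusted p = 0.0606). Tubb4b, a beta tubulin, and Ckap5, a microtubule polymerase, both also used outside mitosis, had log2 fold changes of 0.05 and -0.0011.

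Genes of earlier cell cycle steps were read in the same fit. Of 27 S-phase and replication genes edgeR called 0 and DESeq2 2, 23 lay below 0 and the median was -0.08. At an unadjusted p under 0.05, 10 of them were lower and 1 higher, where 5.29% and 5.94% of all tested entries were. Pola1, the catalytic subunit of DNA polymerase alpha, and Tk1, thymidine kinase, had log2 fold changes of -0.21 and -0.19, while those of Rrm1, a ribonucleotide reductase subunit, and Mcm4, a helicase subunit, were -0.10 and -0.03. Of 12 G1 cyclin, E2F and CDK genes edgeR called 0 and DESeq2 2, with 8 below 0, a median of -0.06 and 1 lower and 1 higher at an unadjusted p under 0.05. Ccne1, the cyclin of S-phase entry, was lower (70.0 ± 3.07 and 59.8 ± 1.03 CPM, SD, n = 3; edgeR adjusted p = 0.128). Ccnd1, the cyclin that responds to growth factors, was higher (363 ± 12.9 and 403 ± 1.88 CPM; edgeR adjusted p = 0.15), and Ccnd3, a related D-type cyclin, had a log2 fold change of 0.02.

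Of 16 tested cell cycle brakes edgeR called 1, which was higher, and DESeq2 3, of which 2 were higher and 1 lower. Of the 16, 13 lay below 0 and the median was -0.08. At an unadjusted p under 0.05, 2 were higher and 2 lower, where 5.94% and 5.29% of all tested entries were. Btg2, a target of p53 that slows proliferation, rose from 41.4, 40.0 and 44.5 CPM in the controls to 66.3, 66.5 and 66.3 CPM in the PERK-labelled libraries (log2 fold change 0.66, SE 0.05, edgeR adjusted p = 0.0032). Cdkn1a, which encodes the CDK inhibitor p21 and is also a p53 target, had the opposite sign and was named after its values were seen. It was at 204, 220.0 and 212 CPM in the controls and 192, 186 and 182 CPM in the PERK-labelled libraries, so its groups did not overlap (log2 fold change -0.18, SE 0.04, edgeR adjusted p = 0.134). The part of p53 in either difference was not tested. Of the 9 tested myoblast markers 4 lay above 0 and 5 below, with a median of -0.03, and 8 of the intervals included 0. Myog, which encodes myogenin, a factor of muscle differentiation, was the 1 called gene of the 9 (log2 fold change -0.28, SE 0.03, edgeR adjusted p = 0.0137). Btg2 was thus higher and Myog lower, and their part in the differences of the mitotic genes was not tested.

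**Figure D4:**
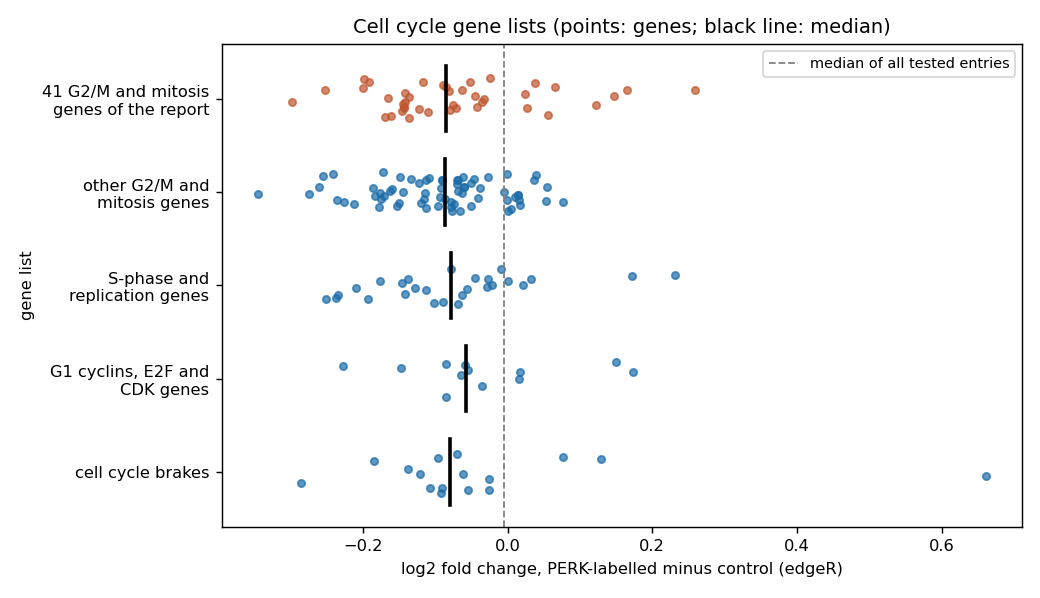
Log2 fold change (x axis) of every tested gene (points) in 5 cell cycle lists (y axis), with the median of each list as a black line and that of all tested entries as a dashed line (-0.0045). The list medians lie between -0.09 and -0.06, and Btg2 at 0.66 is the point at the far right of the brakes.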

How the data were processed

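RNA sequencing counts of 6 H9c2 libraries (3 control, 3 PERK) were analysed. The deposited counts per entry are whole numbers and were used unchanged. Bowtie 0.12.2 and the build mm9 are listed, per the submitters' processing notes, although the entries carry rat symbols. No source used here gives the build or counter behind the counts. Each library's deposited normalized signal is its counts over a constant (checked), and it was left aside. Further columns that the authors deposited hold log2 fold changes with a test score and p-values, raw and adjusted. A second table with 6 columns of values matches no label and was not used. Low counts piled up at 12 and 18 in every library, so a count may rest on fewer fragments than its size.

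Counts were scaled by TMM, filtered with filterByExpr (minimum count 10) and tested with edgeR 4.0.16 (R 4.3.3, glmQLFTest, group as the only term), adjusted over all 14488 entries. Standard errors and 95% intervals were derived from each fold change and its F. Alternatives used DESeq2 1.42.0, limma 3.58.1 (voom), a robust fit, RLE size factors, other filters (none, minimum 100), counts divided by 6, a replicate block and each library left out. Only the edgeR steps were run on simulated counts. The pass marks covered unchanged genes and changes much larger than those of the members. Named genes were all members, called genes of each other list or, with none called, the 2 with the smallest p and the 2 highest in CPM, and Eif2ak3. Cdkn1a was named outside this rule, after its values were seen. Members and lists were chosen with earlier results of these data known. Sharing of reads with pseudogene copies was not tested.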

Additional observations from a re-analysis of the deposited data

How the results depend on the processing

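The direction of the member median held in all 14 alternatives. It was -0.08 or -0.09 with other tools, filters and scalings, and lay between -0.12 (without PERK replicate 1) and -0.068 (without control replicate 1) when 1 library was left out. The 0 called members became 6 with DESeq2, 2 with the robust fit, 2 with the stricter filter, 2 with counts divided by 6, and 1 each with limma voom, RLE size factors and no filter, all of them lower, and stayed 0 whichever library was left out. The called genes of the other G2/M list became 4 with DESeq2, 3 with the robust fit, 2 with the stricter filter and 1 each with voom, no filter and counts divided by 6. DESeq2 called 2 G1 genes, 2 S-phase genes and 3 brakes, and the robust fit called 2 brakes. Among single members Bub1b turned to -0.015 and Pttg1 to 0.032 without control replicate 1, and Racgap1 to -0.088 without control replicate 2 (ranges with 1 library left out: -0.015 to 0.050, -0.12 to 0.032 and -0.088 to 0.48). With a replicate block 0 members were called and the median was -0.08. Over all tested entries same-numbered libraries did not deviate together (correlations -0.0631, 0.0114 and 0.029). Those of differently numbered libraries ran from -0.0644 to 0.0562. Low-count entries weigh as much as others in these values, so whether the numbers pair the libraries is not settled. The block reduced the calls over all entries from 61 to 9. Fits without a library have less power. The cause of the other changes was not tested.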
